A study of Mus musculus with 12 samples.

Results

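The 10 genes of bile acid synthesis, transport and signalling described here were followed in mouse liver with and without the endoplasmic reticulum (ER) stress sensor Ire1α. The genes are Cyp7a1, Cyp8b1, Cyp27a1, Cyp7b1, Nr1h4, Nr0b2, Slc10a1, Abcb11, Baat and Slc27a5, and each was taken with every probe set that the platform annotation gave to that gene alone. They came to 16 probe sets, and all 10 genes were among the 14568 genes tested, each through its brightest probe set. A probe set of Cyp27a1 and another of Cyp7b1, with mean deposited intensities of 7.29 and 16.5, fell to the filter on dim probe sets. Their differences are not given here. The 12 Affymetrix arrays fell into 4 groups of 3 livers. The titles read Fe-CRE+Tm for Ire1α null livers after tunicamycin, Fe+CRE+Tm for control livers after tunicamycin, Fe-CRE+ for null livers after vehicle and Fe+CRE+ for control livers after vehicle. All 4 groups are thus labelled CRE+, and the labels do not name the promoter that drives the recombinase. The mice were conditional null or control animals of the C57Bl/6J strain, 3 months old. Tunicamycin, an inhibitor of N-linked glycosylation that loads the ER with unfolded protein, was injected into the abdomen at 2 µg per g of body weight, the vehicle was dextrose, and livers were taken 8 hours later.

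Bile acids are made from cholesterol in hepatocytes. In the classic route Cyp7a1 carries out the first and rate-limiting step and Cyp8b1 directs the product towards cholic acid, while Cyp27a1 and Cyp7b1 serve the alternative route that starts at the sterol side chain. Slc27a5 activates bile acids to their coenzyme A esters and Baat joins these to taurine or glycine. Abcb11, the bile salt export pump BSEP, secretes the conjugates into the canaliculus, and Slc10a1, the sodium-dependent transporter NTCP, takes returning bile acids up from portal blood. The nuclear receptor FXR, encoded by Nr1h4, senses bile acids and induces Nr0b2, whose product SHP dampens Cyp7a1 and Cyp8b1.

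Values are normalised log2 intensities, and a difference is given as log2 fold change ± its standard error from limma (3 arrays in each group). A pseudocount of 16 was added before the logarithm, so that changes of dim genes are understated. Genes count as called where the adjusted p of limma, by the Benjamini-Hochberg method over all genes tested, is under 0.05. The labels call the livers biological replicates. In whole liver, fewer cells of a type and less RNA per cell cannot be told apart. Precision is limited by there being 3 arrays in a group.

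The median deposited intensity of an array lay between 37.4 and 45.3. Ern1, which encodes Ire1α, had 5 probe sets, of which 0 were called between null and control livers with either treatment. Its brightest one averaged 11.69 in null livers and 11.59 in control livers after tunicamycin, and 10.42 in null livers and 10.56 in control livers after vehicle. The labels do not say which part of Ern1 was deleted, so these probe sets do not check the genotype labels. Null tunicamycin replicate 2 stood apart: 8 of the 9 measured of 11 listed kidney markers were more than 1 log2 unit above the highest of the other arrays there. Umod read 13.14 on it and at most 6.55 elsewhere. The 6 measured hepatocyte markers averaged between 13.12 and 13.44 on every array, and 0 of them were called in any comparison.

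The start regions of the genes that were called in at least 1 comparison are shown first, to give the sequence context of the values below. RefSeq promoter windows (GRCm38.p6) matched 6 of the 10 genes, in 7 windows. Capitals mark matches, on either strand, to the nuclear receptor half-site AGGTCA and the E-box CACGTG. The Nr0b2 window, chr4:133553126-133553375 on the plus strand, is the 250 bases before the start of the gene, which spans chr4:133553376-133556686. The Nr1h4 window, chr10:89506659-89506908 on the minus strand, lies before a start inside the annotated gene at chr10:89454234-89533645. Slc10a1, at chr12:80953185-80968705 on the minus strand, has 2 windows, the first before the outer end of the gene at chr12:80968706-80968955 and the second before an inner start at chr12:80968080-80968329.
Nr0b2: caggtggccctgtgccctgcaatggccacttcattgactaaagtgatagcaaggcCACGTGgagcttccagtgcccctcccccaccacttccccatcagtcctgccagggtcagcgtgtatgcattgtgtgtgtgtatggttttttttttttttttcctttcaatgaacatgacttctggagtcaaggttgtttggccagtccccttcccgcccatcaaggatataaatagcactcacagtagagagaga
Nr1h4: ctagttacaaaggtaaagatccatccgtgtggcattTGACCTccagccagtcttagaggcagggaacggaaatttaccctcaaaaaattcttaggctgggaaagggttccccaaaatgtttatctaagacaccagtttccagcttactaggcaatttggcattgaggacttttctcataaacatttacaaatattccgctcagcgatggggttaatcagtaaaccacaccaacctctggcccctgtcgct
Slc10a1, outer start: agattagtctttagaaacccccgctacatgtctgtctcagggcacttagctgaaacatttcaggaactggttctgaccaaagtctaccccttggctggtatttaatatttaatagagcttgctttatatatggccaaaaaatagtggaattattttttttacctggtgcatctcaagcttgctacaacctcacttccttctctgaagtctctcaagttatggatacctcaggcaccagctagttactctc
Slc10a1, inner start: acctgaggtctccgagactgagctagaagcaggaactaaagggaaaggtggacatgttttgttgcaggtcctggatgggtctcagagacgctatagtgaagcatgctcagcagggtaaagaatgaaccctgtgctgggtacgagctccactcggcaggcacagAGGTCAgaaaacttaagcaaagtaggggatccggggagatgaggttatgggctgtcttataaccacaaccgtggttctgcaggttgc

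The E-box of Nr0b2 lay at -195 to -190 from the start, and 6.02% of all 32851 windows held one. AGGTCA was found in 3 of the 7 windows and in 14.0% of all windows. It lay at -214 to -209 of Nr1h4 on the opposite strand, at -87 to -82 of the inner start of Slc10a1, and at -56 to -51 of Abcb11 on the opposite strand. The LRH-1 site CAAGGTCA, in 1.33% of all windows, the inverted repeat of AGGTCA spaced by 1 base, in 0.00609%, the unfolded protein response core TGACGTGG, in 0.563%, and the CARE core TGATGCAA, in 0.791%, were found in 0 of the 7. The CCAAT box was found in the Cyp27a1 window, on the opposite strand, and in 33.8% of all windows, and the Cyp8b1 window held 0 of these motifs. These letters overlap, since CAAGGTCA and the inverted repeat both contain AGGTCA. A match describes letters only.

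The first question was how the liver's bile acid genes respond to acute ER stress. In null livers tunicamycin lowered the uptake transporter Slc10a1, in control livers it lowered Slc10a1 and the repressor Nr0b2, and the other members were not called. In null livers 1 of the 10 members was called, 0 higher and 1 lower, against 16.8% of all genes called in that comparison, 7.59% higher and 9.23% lower. In control livers 2 of 10 were called, 0 higher and 2 lower, against 25.0% of all genes, 11.6% higher and 13.3% lower. Both counts are thus near or below those shares, and nothing about the members as a set is read from them. The members' median difference was -0.34 in null livers, beside -0.07 over all genes, and -0.30 in control livers, beside -0.11 over all genes. Those all-gene medians depend on the scaling and stood at 0.08 in null livers and 0.01 in control livers with the values as deposited. The calls then split into 1477 higher and 512 lower in null livers, in place of 1105 and 1344, and into 2062 higher and 1068 lower in control livers, in place of 1693 and 1943.

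**Figure D1:**
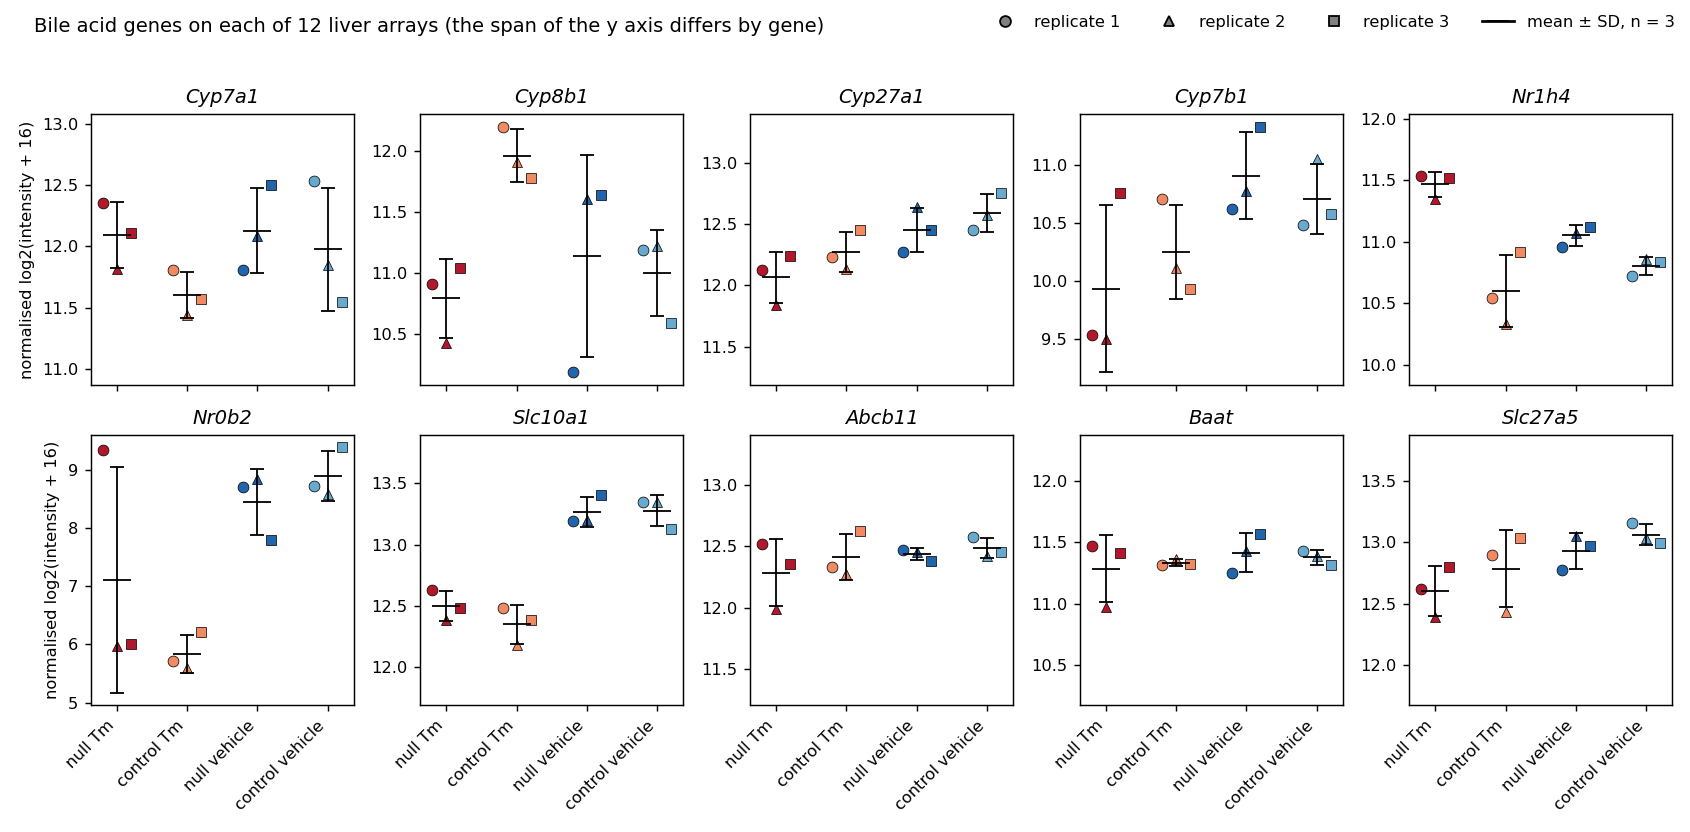
Normalised log2 intensity of each of the 10 genes on every array, with the mean and SD of each group of 3, in the order null tunicamycin, control tunicamycin, null vehicle and control vehicle. Slc10a1 sits lower on all 6 tunicamycin arrays than on any vehicle array, Nr0b2 is near 6 on 5 of the 6 tunicamycin arrays and at 9.34 on the sixth, and Nr1h4 is highest in the null tunicamycin group.

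Slc10a1, which brings bile acids back into the hepatocyte, gave the most uniform response. It read 12.63, 12.38 and 12.48 in null livers and 12.49, 12.18 and 12.39 in control livers after tunicamycin. After vehicle it read 13.19, 13.20 and 13.41 in null livers and 13.35, 13.35 and 13.13 in control livers. Every tunicamycin array lay below every vehicle array, in both genotypes. Slc10a1 fell by 0.77 ± 0.14 in null livers, which is 1.70-fold lower (95% interval -1.07 to -0.46, adjusted p = 0.00297), and fell by 0.92 ± 0.14 in control livers, which is 1.90-fold lower (interval -1.23 to -0.62, adjusted p = 0.00047). A second, dimmer probe set read 11.35, 11.41 and 11.01 in null livers and 11.39, 11.21 and 11.47 in control livers after tunicamycin, against 12.09, 12.45 and 12.52 in null livers and 12.91, 12.54 and 12.75 in control livers after vehicle. It was also lower in both genotypes, with differences of -1.10 ± 0.17 in null livers (adjusted p = 0.00202) and -1.38 ± 0.17 in control livers (adjusted p = 0.000197). The responses of the genotypes differed by 0.15 ± 0.20 (null minus control, interval -0.27 to 0.58), which was not called (adjusted p = 0.934). Without the array carrying kidney transcripts the difference in null livers was -0.71 (adjusted p = 0.0105).

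Nr0b2 encodes SHP, the orphan receptor that FXR induces in liver. It read 9.34, 5.97 and 6.01 in null livers and 5.71, 5.60 and 6.21 in control livers after tunicamycin. After vehicle it read 8.71, 8.84 and 7.79 in null livers and 8.71, 8.59 and 9.39 in control livers. The groups did not overlap in control livers, where Nr0b2 fell by 3.06 ± 0.71, or 8.31-fold (interval -4.60 to -1.51, adjusted p = 0.00764). The deposited intensities behind this were 37.0, 33.0 and 55.8 in control livers after tunicamycin, against 416, 339 and 566 after vehicle, so the treated livers read near the median of all probe sets on their arrays. This call was lost with the 5' to 3' ratio of actin, a measure of RNA integrity, as a covariate (-2.99, adjusted p = 0.0805), and it held when any 1 array was left out. That ratio averaged 0.328 ± 0.0533 in control livers after tunicamycin and 0.757 ± 0.323 after vehicle (SD, n = 3 each), a difference of -0.429 with an exact two-sided permutation p of 0.1, the smallest that 3 against 3 allows.

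In null livers 1 array decided the value of Nr0b2. Replicate 1 after tunicamycin had a deposited intensity of 736, above every other array of the study, while replicates 2 and 3 had 46.2 and 53.9, against 347, 430 and 182 after vehicle. On the normalised scale replicate 1 read 9.34, just below control vehicle replicate 3 at 9.39. With all arrays the difference was -1.34 ± 0.71 (adjusted p = 0.231), and without replicate 1 it was -2.44 and called (adjusted p = 0.000805). On that same array the stress-induced transcription factor gene Ddit3, chosen for this comparison after the Nr0b2 values were seen, read 13.36, beside 13.28 and 13.37 on the other null arrays and 13.41, 13.32 and 13.37 on the control arrays after tunicamycin. Ddit3 read 8.48, 8.16 and 7.26 in null livers and 7.34, 7.31 and 7.44 in control livers after vehicle. The array with high Nr0b2 thus carried Ddit3 at the level of the treated livers, but 1 gene does not place its whole response. Of the wider list below, Cyp2b10 rose least there (11.32, beside 12.43 and 12.73) and Abcg5 fell least (10.23, beside 8.88 and 9.63). Abcc4 rose most there (10.43, beside 9.99 and 9.36). Whether that liver responded less was not tested. For Nr0b2 the difference between the genotypes' responses was 1.72 ± 1.00 (adjusted p = 0.749), and 0.60 without null tunicamycin replicate 1 (adjusted p = 0.803).

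Of the 4 synthesis enzymes none was called in either genotype, and their values did not run one way. Cyp8b1, the enzyme that decides how much cholic acid is made, read 10.91, 10.43 and 11.04 in null livers and 12.20, 11.91 and 11.78 in control livers after tunicamycin. After vehicle it read 10.19, 11.60 and 11.64 in null livers and 11.19, 11.22 and 10.59 in control livers. In control livers all 3 treated arrays were above all 3 vehicle arrays, with a difference of 0.96 ± 0.34 (interval 0.21 to 1.71) that did not pass the threshold (adjusted p = 0.0621). The difference was called with array medians centred (1.16, adjusted p = 0.0444), with the values as deposited (1.18, adjusted p = 0.0484), with only the groups compared (adjusted p = 0.0125) and without null vehicle replicate 1 (0.96, adjusted p = 0.00787). With the actin ratio as a covariate it was 0.41 (adjusted p = 0.611). In null livers it was -0.35 ± 0.34 (interval -1.10 to 0.40, adjusted p = 0.547), and the null vehicle arrays spread widely. Null vehicle replicate 1, the lowest of them at 10.19, also had the lowest 5' to 3' ratio of Gapdh in the study, 0.181. With the Gapdh ratio fitted as a covariate, Cyp8b1 gave -0.39 in null livers (adjusted p = 0.451) and 0.92 in control livers (adjusted p = 0.0568).

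Cyp7a1 was not called on either of its probe sets. It read 12.35, 11.82 and 12.11 in null livers and 11.81, 11.44 and 11.57 in control livers after tunicamycin, against 11.81, 12.08 and 12.50 in null livers and 12.53, 11.85 and 11.55 in control livers after vehicle. The groups overlapped in both genotypes, with differences of -0.04 ± 0.26 in null livers (interval -0.59 to 0.52, adjusted p = 0.941) and -0.37 ± 0.26 in control livers (interval -0.92 to 0.19, adjusted p = 0.334). The second Cyp7a1 probe set was dimmer and read 8.68, 8.71 and 8.21 in null livers and 8.72, 8.45 and 8.50 in control livers after tunicamycin, against 7.90, 9.04 and 9.59 in null livers and 10.64, 8.85 and 8.94 in control livers after vehicle. Its groups did not overlap in control livers, and the difference of -0.92 ± 0.47 was not called (adjusted p = 0.237), and control vehicle replicate 1 alone stood at 10.64.

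The alternative route gave lower means after tunicamycin that did not pass the test. Cyp7b1, the oxysterol hydroxylase, read 9.54, 9.50 and 10.77 in null livers and 10.71, 10.12 and 9.93 in control livers after tunicamycin, against 10.62, 10.78 and 11.33 in null livers and 10.49, 11.06 and 10.58 in control livers after vehicle. Its difference was -0.98 ± 0.34 in null livers (interval -1.71 to -0.24, adjusted p = 0.0704) and -0.46 ± 0.34 in control livers (adjusted p = 0.368). Null tunicamycin replicate 3 overlapped the vehicle arrays, and without it the difference in null livers was called (-1.39, adjusted p = 0.00896). A second Cyp7b1 probe set gave -0.86 ± 0.31 in null livers (adjusted p = 0.116) and -0.64 ± 0.31 in control livers (adjusted p = 0.21). Cyp27a1, the mitochondrial sterol hydroxylase that opens the route, read 12.12, 11.84 and 12.24 in null livers and 12.23, 12.13 and 12.45 in control livers after tunicamycin. After vehicle it read 12.27, 12.64 and 12.45 in null livers and 12.45, 12.57 and 12.75 in control livers. The groups did not overlap in null livers, where the difference was -0.39 ± 0.16 (interval -0.74 to -0.04, adjusted p = 0.122), and in control livers it was -0.32 ± 0.16 (adjusted p = 0.173).

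None of the conjugation and export genes was called. Abcb11 read 11.99 to 12.52 in null livers and 12.27 to 12.63 in control livers after tunicamycin, against 12.38 to 12.47 in null livers and 12.42 to 12.58 in control livers after vehicle. Its difference was -0.15 ± 0.16 in null livers (interval -0.49 to 0.19) and -0.07 ± 0.16 in control livers (interval -0.42 to 0.27). Baat gave -0.13 ± 0.15 in null livers (interval -0.46 to 0.20) and -0.04 ± 0.15 in control livers (interval -0.37 to 0.29), and its second probe set gave 0.12 ± 0.17 in null livers and -0.13 ± 0.17 in control livers. Slc27a5, the ligase that precedes Baat, gave -0.33 ± 0.17 in null livers (interval -0.71 to 0.05) and -0.28 ± 0.17 in control livers (interval -0.66 to 0.11). For Abcb11 and the Baat probe set used, these intervals exclude a change of 0.5 log2 units in either direction. Those of the second Baat probe set reach 0.502 in null livers and -0.509 in control livers, and intervals for Slc27a5 reach -0.71.

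**Figure D2:**
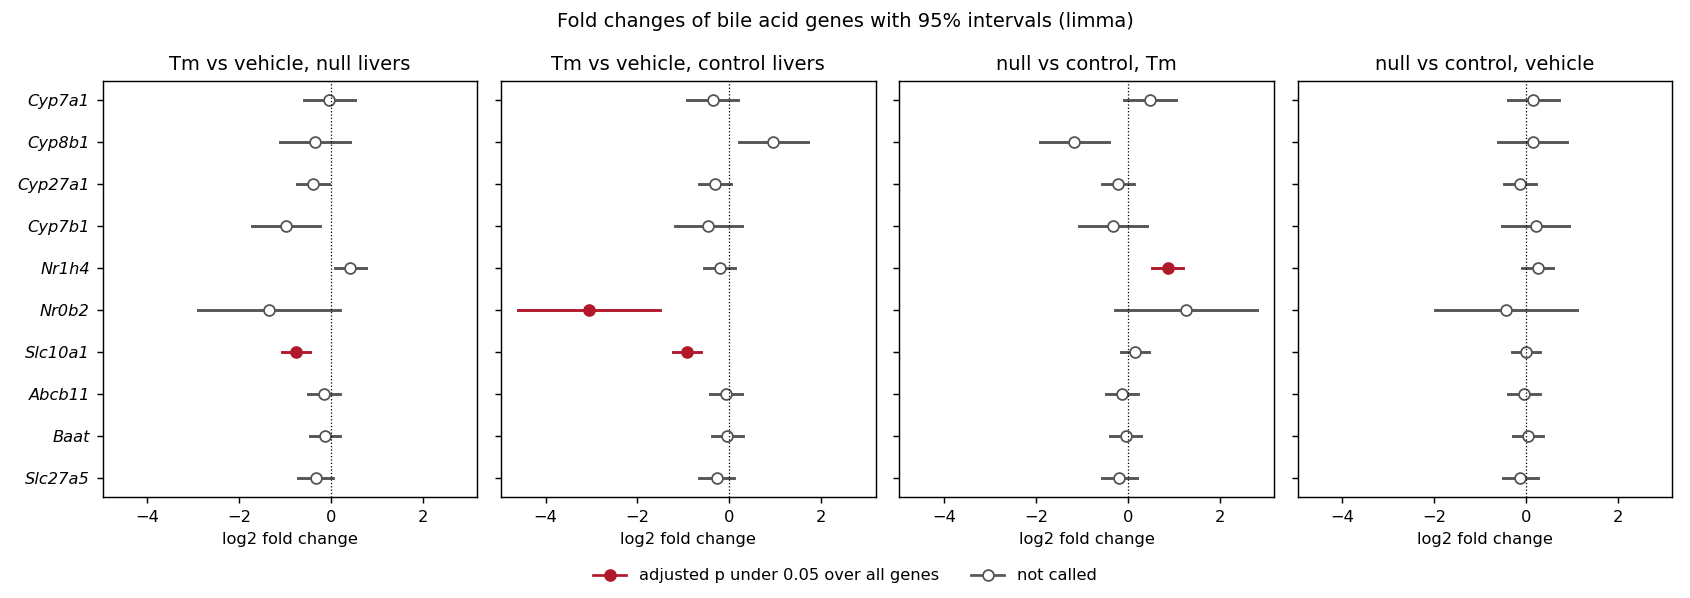
Log2 fold change of each of the 10 genes with its 95% interval from the limma fit, for tunicamycin against vehicle in each genotype and for null against control livers with each treatment. The filled points, which are called, are Slc10a1 below 0 with tunicamycin in both genotypes, Nr0b2 below 0 in control livers, and Nr1h4 above 0 for null against control livers after tunicamycin.

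For the 3 called members the tested genes with the most similar pattern were looked up. Over the 12 arrays Slc10a1 was most like Slc40a1 (Pearson r = 0.988), the iron exporter ferroportin, followed by Mpdz (0.983) and Acsm3 (0.979). Nr0b2 was most like Sgpl1 (0.943), Cadm1 (0.940) and Mcc (0.939), and Nr1h4 was most like Mif (0.922), Snw1 (0.894) and Ppp1r15b (0.890). These values are descriptions over arrays that share the treatment groups.

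The second question was whether loss of Ire1α changed these genes. After tunicamycin the bile acid receptor gene Nr1h4 was higher in null than in control livers, and it was the only one of the 10 called in that comparison, against 3.99% of all genes called, 0.755% higher and 3.23% lower. The members' median difference was -0.09, beside 0.02 over all genes. After vehicle, on the probe sets used, 0 of the 10 members were called and 0 had an unadjusted limma p under 0.05. Over all genes 0% were called in either direction, and 597 genes had such an unadjusted limma p. The second Slc10a1 probe set gave -0.38 ± 0.17 between null and control livers after vehicle (interval -0.757 to -0.00518). Its groups did not overlap, and it was not called, while the Slc10a1 probe set used gave -0.01 ± 0.14. For the test of whether tunicamycin acted differently in the genotypes 0 of the 10 were called, against 0.837% of all genes. Of all genes 0.0137% were called with a higher and 0.824% with a lower response in null livers. An unadjusted limma p under 0.05 was reached by 2 of the 10, Nr1h4 and Cyp8b1, and by 1203 of all 14568 genes.

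Nr1h4 read 11.53, 11.35 and 11.52 in null livers and 10.55, 10.33 and 10.92 in control livers after tunicamycin. After vehicle it read 10.96, 11.07 and 11.12 in null livers and 10.72, 10.86 and 10.83 in control livers. All null arrays were above all control arrays with either treatment. After tunicamycin the difference was 0.87 ± 0.15, or 1.83-fold (interval 0.53 to 1.21, adjusted p = 0.00714), and after vehicle it was 0.25 ± 0.15 (interval -0.09 to 0.58, adjusted p = 0.988). The call after tunicamycin held with each array left out in turn (0.73 to 1.03, adjusted p between 0.00309 and 0.0428), 0.92 without the array that carried kidney transcripts (adjusted p = 0.0114), and was lost when only these 2 groups were fitted (adjusted p = 0.0582). Tunicamycin against vehicle gave 0.42 ± 0.15 in null livers (interval 0.08 to 0.75, adjusted p = 0.089), without overlap, and -0.21 ± 0.15 in control livers (adjusted p = 0.371). With the values as deposited the difference in null livers was called (0.64, adjusted p = 0.0359), and that in control livers was 0.03. The responses differed by 0.62 ± 0.22 (interval 0.15 to 1.10), which was not called over all genes (adjusted p = 0.362).

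The genotypes also differed in the Gapdh 5' to 3' ratio after tunicamycin. It averaged 0.401 ± 0.0327 in null livers and 0.556 ± 0.0289 in control livers (SD, n = 3 each, exact two-sided permutation p = 0.1, the smallest 3 against 3 allows). After vehicle it averaged 0.372 ± 0.241 in null livers and 0.528 ± 0.220 in control livers. With this ratio as a covariate the difference of Nr1h4 after tunicamycin was 0.87 and stayed called (adjusted p = 0.0177).

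Cyp8b1 had the next smallest p between the genotypes under stress. Its mean was 10.79 ± 0.32 in null livers and 11.96 ± 0.21 in control livers after tunicamycin (SD, n = 3 each), without overlap. The difference of -1.17 ± 0.34 (interval -1.92 to -0.41) missed the threshold (adjusted p = 0.0968). It was called when only these 2 groups were fitted (adjusted p = 0.0335) and without null vehicle replicate 1 (-1.16, adjusted p = 0.0125), and it was -0.98 once the array rich in kidney transcripts was left out (adjusted p = 0.215). The means after vehicle were 11.14 ± 0.83 in null livers and 11.00 ± 0.35 in control livers. Its responses to tunicamycin differed by -1.31 ± 0.49 (interval -2.37 to -0.24), which was not called (adjusted p = 0.418).

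Cyp7a1, the partner of Cyp8b1 in the classic route, averaged 12.09 ± 0.27 in null livers and 11.61 ± 0.19 in control livers after tunicamycin, and the arrays did not overlap, by a margin of less than 0.01. That difference of 0.48 ± 0.26 was not called (interval -0.07 to 1.04, adjusted p = 0.408), and the second probe set gave -0.02 (adjusted p = 0.995). Nr0b2 gave 1.27 ± 0.71 between null and control livers after tunicamycin (adjusted p = 0.439), and 0.15 without null tunicamycin replicate 1. On the probe sets used, the other 6 members differed between the genotypes by -0.32 to 0.15 after tunicamycin, with adjusted p of 0.600 or more. The second Cyp7b1 probe set gave -0.63 ± 0.31 (adjusted p = 0.471). Those of Slc10a1 and Baat gave -0.10 ± 0.17 and 0.09 ± 0.17.

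**Figure D3:**
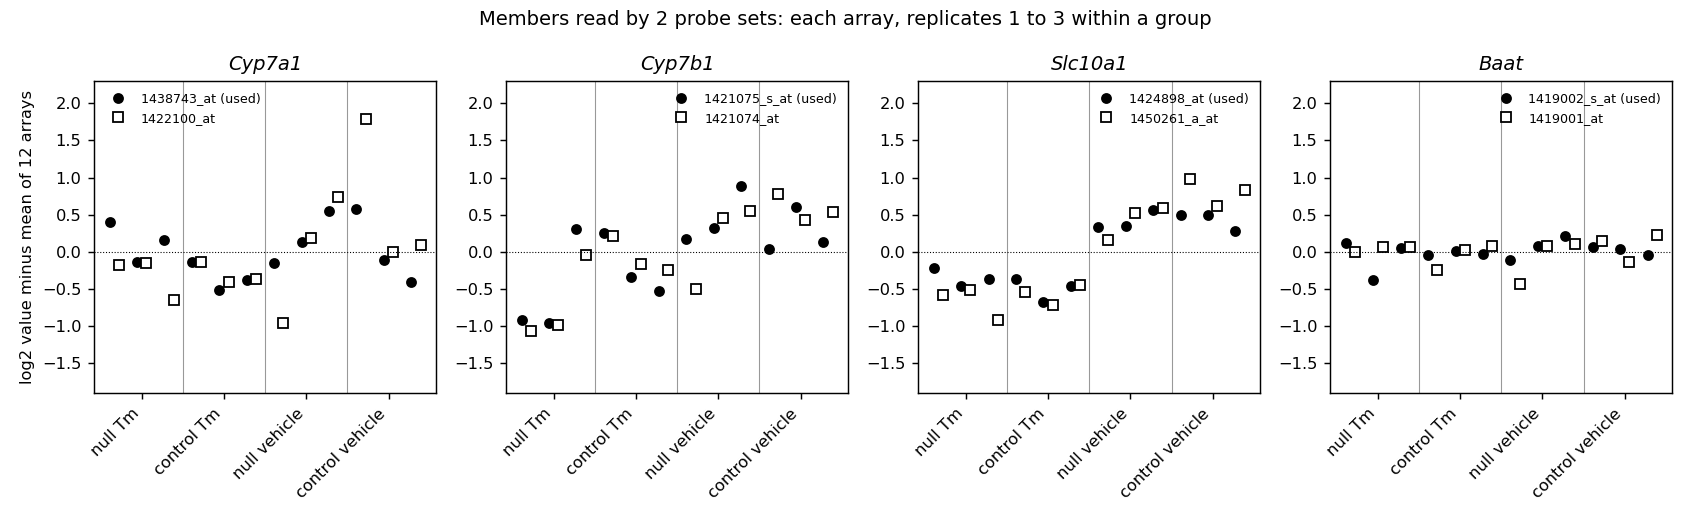
Normalised log2 intensity minus the mean of the 12 arrays, for the 4 genes with 2 probe sets past the filter, by group and array, with filled circles for the probe set used and open squares for the other. Both Slc10a1 probe sets lie below 0 on all 6 tunicamycin arrays and above 0 on all 6 vehicle arrays, while the second Cyp7a1 probe set spreads widely on the vehicle arrays.

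A wider list of 52 bile acid genes, of which 47 were measured, sets the members in their pathway. The list was drawn up with earlier results of these data known. In null livers tunicamycin raised 3 and lowered 11 of the 47, with a median difference of -0.32, and in control livers it raised 3 and lowered 19, with a median of -0.41. Over all genes 7.59% were called higher and 9.23% lower in null livers, and 11.6% higher and 13.3% lower in control livers, and the counts by role below stand beside the same shares. The split moved with the scaling: with the values as deposited 6 were higher and 7 lower in null livers, and 3 higher and 11 lower in control livers. With the actin ratio as a covariate 13 were called in control livers.

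Among the 16 other synthesis genes 4 fell in null livers and 7 in control livers, and 0 rose in either. Akr1d1, the reductase that saturates the sterol ring, fell by 1.05 ± 0.19 in null livers (adjusted p = 0.0031) and fell by 1.10 ± 0.19 in control livers (adjusted p = 0.00125). Akr1c14, a ketosteroid reductase, fell by 1.37 ± 0.30 in null livers (adjusted p = 0.00829) and fell by 2.11 ± 0.30 in control livers (adjusted p = 0.000285). The 4 enzymes described above, Cyp7a1, Cyp8b1, Cyp27a1 and Cyp7b1, are not among these 16.

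At the canalicular membrane 1 of 7 genes rose and 3 fell in each genotype. Abcg5 and Abcg8, whose products together pump sterols into bile, fell by 1.61 ± 0.28 and 1.68 ± 0.33 in null livers (adjusted p = 0.00231 and 0.00522) and fell by 2.38 ± 0.28 and 2.45 ± 0.33 in control livers (adjusted p = 8.3e-05 and 0.000237). Abcb4, the phospholipid flippase that protects the duct from bile salts, rose by 0.89 ± 0.19 in null livers (adjusted p = 0.00692) and rose by 0.77 ± 0.19 in control livers (adjusted p = 0.00956). With actin ratio as covariate, Abcb4 in control livers was at 0.48 and was not called (adjusted p = 0.221). The exporter Abcc2 gave 0.27 ± 0.20 in null livers (adjusted p = 0.412) and -0.17 ± 0.20 in control livers (adjusted p = 0.578).

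On the blood side 1 of 8 basolateral transport genes rose in each genotype, and 0 fell in null livers and 3 in control livers. Abcc4, which exports bile acids back to blood, rose by 2.39 ± 0.27 in null livers (adjusted p = 0.000145) and rose by 1.85 ± 0.27 in control livers (adjusted p = 0.000404). It read 10.43, 9.99 and 9.36 in null livers and 9.86, 9.42 and 9.09 in control livers after tunicamycin, against 7.74, 7.44 and 7.43 in null livers and 7.32, 7.94 and 7.54 in control livers after vehicle. The organic solute transporter subunit Slc51b read 7.69 on the array with kidney transcripts and at most 6.39 elsewhere, and was not called.

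Of 13 regulators 3 fell in null livers and 5 in control livers, and 0 rose in either. Nr1i3, the receptor CAR that governs drug and bile acid detoxification, read 10.21, 9.14 and 9.70 in null livers and 8.40, 7.87 and 8.56 in control livers after tunicamycin. After vehicle it read 11.20, 11.63 and 11.48 in null livers and 10.76, 11.27 and 11.28 in control livers. It fell by 1.75 ± 0.27 in null livers (adjusted p = 0.00112) and fell by 2.83 ± 0.27 in control livers (adjusted p = 1.82e-05). Cyp2b10, a target of CAR in mouse, moved the other way and rose by 1.89 ± 0.31 in null livers (adjusted p = 0.00167) and rose by 2.29 ± 0.31 in control livers (adjusted p = 0.000231). It was 1 of 3 detoxification genes, of which 1 rose and 1 fell in each genotype.

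Mafg, a FXR-induced repressor of bile acid synthesis genes in mouse, fell by 0.88 ± 0.15 in null livers (adjusted p = 0.00173) and fell by 1.09 ± 0.15 in control livers (adjusted p = 0.00022), the first of which was not called with the values as deposited (-0.63, adjusted p = 0.0613). Foxa2, a hepatocyte factor, fell by 1.27 ± 0.32 in null livers (adjusted p = 0.0186) and fell by 1.88 ± 0.32 in control livers (adjusted p = 0.00114). The call in null livers was lost with array medians centred (adjusted p = 0.0758), with the values as deposited (adjusted p = 0.11), with only the groups compared (adjusted p = 0.0532) and without null vehicle replicate 2 (adjusted p = 0.0558) or 3 (adjusted p = 0.0551). The coactivator gene Ppargc1a gave -1.12 ± 0.49 in null livers (adjusted p = 0.15) and fell by 1.91 ± 0.49 in control livers (adjusted p = 0.014). In null livers after tunicamycin it read 8.42 on the array with kidney transcripts, beside 6.98 and 6.88, and without that array its difference there was -2.02 and called (adjusted p = 0.000889).

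The receptors and factors that act on Cyp7a1 and Cyp8b1 gave smaller values. Fgfr4, the hepatic receptor for the intestinal signal Fgf15, gave -0.51 ± 0.19 in null livers (adjusted p = 0.0868) and -0.41 ± 0.19 in control livers (adjusted p = 0.141), called in null livers without null tunicamycin replicate 1 (-0.70, adjusted p = 0.0261). Its coreceptor Klb gave 0.46 ± 0.23 in null livers (adjusted p = 0.208) and 0.12 ± 0.23 in control livers (adjusted p = 0.76), called in null livers without the array with kidney transcripts (0.76, adjusted p = 0.0156). Nr5a2, which encodes LRH-1, gave -0.01 ± 0.22 in null livers and -0.06 ± 0.22 in control livers. Rxra, the partner of FXR, gave -0.27 ± 0.27 in null livers and -0.44 ± 0.27 in control livers. Hnf4a gave 0.29 ± 0.11 in null livers (adjusted p = 0.112) and 0.17 ± 0.11 in control livers (adjusted p = 0.307), and in null livers it was called with a pseudocount of 64, with the values as deposited and with the trend and robust options (0.28 to 0.45).

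**Figure D4:**
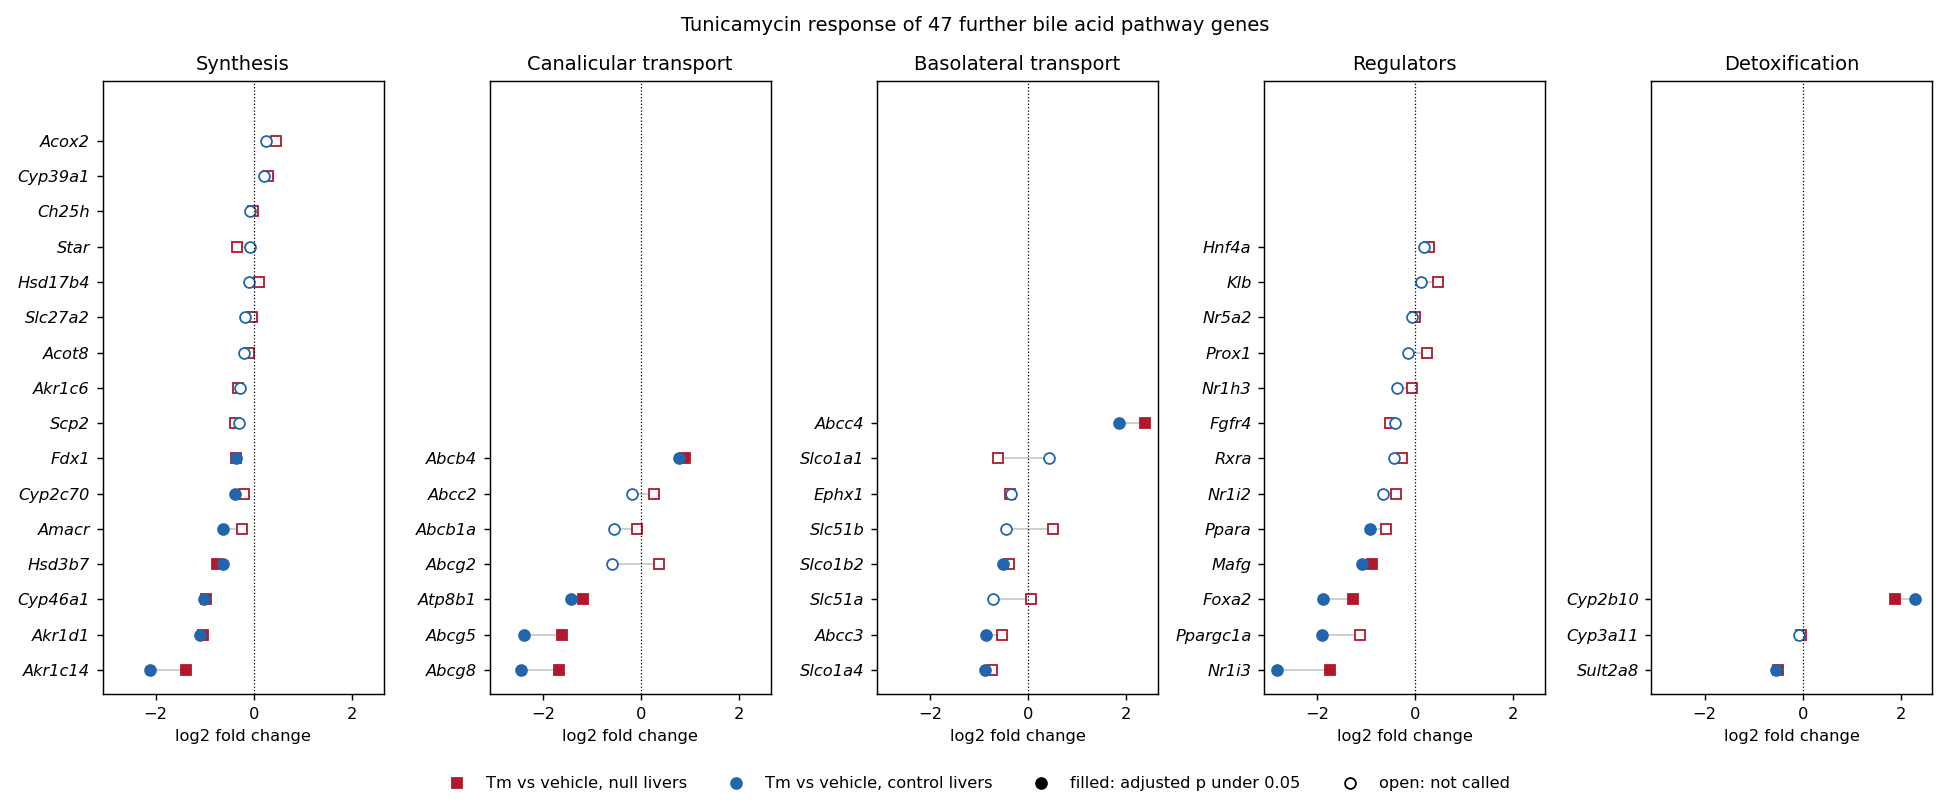
Log2 fold change of the wider list's measured genes with tunicamycin, by role, in null and in control livers, with filled markers for called genes. In null livers 11 of 47 genes are called lower and 3 higher, and in control livers 19 are called lower and 3 higher.

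Between the genotypes 2 of the 47 wider pathway genes were called after tunicamycin, both higher in null livers. The median difference was 0.20 over the list, beside 0.02 over all genes. Over all genes 3.99% were called in this comparison, 0.755% higher and 3.23% lower. The 2 of 47 are near the share called in either direction and above the share called higher. Nothing about the list as a set is read from 2 genes. Nr1i3 was higher by 1.41 ± 0.27, or 2.66-fold (adjusted p = 0.0118). Abcg2, a canalicular and multidrug exporter, read 10.73, 11.43 and 10.60 in null livers and 9.70, 9.75 and 10.17 in control livers after tunicamycin, and was higher by 1.05 ± 0.22, or 2.07-fold (adjusted p = 0.0174). The 11.43 is on the array with kidney transcripts, and without it the difference was 0.79 and called (adjusted p = 0.0333), while the difference with tunicamycin in null livers was 0.10, against 0.36 with it. With the Gapdh ratio as a covariate Abcg2 was at 0.97 (adjusted p = 0.0483). Both calls were lost when only these 2 groups were fitted (adjusted p = 0.0655 for Nr1i3 and 0.0922 for Abcg2), and without control tunicamycin replicate 2 (adjusted p = 0.0705 and 0.0912). The call of Abcg2 was also lost without control tunicamycin replicate 1 (adjusted p = 0.077). Leaving out the array with kidney transcripts gave 5 called genes. Among them were Abcg5 (1.30, adjusted p = 0.00681) and Foxa2 (1.06, adjusted p = 0.0448), which were not called with all arrays. After vehicle 0 of the 47 were called and 0 had an unadjusted limma p under 0.05, with Ppargc1a at 0.71 ± 0.49 and Slc51a at 0.53 ± 0.42 the smallest in p (adjusted p = 0.988 each). For the difference between the responses 0 were called and 2 had an unadjusted limma p under 0.05, Abcg2 (0.95 ± 0.30, adjusted p = 0.282) and Nr1i3 (1.07 ± 0.38, adjusted p = 0.377). Of all 14568 genes 0.837% were called for this difference, and 1203 had such an unadjusted limma p.

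Markers of other liver cells and of intestine moved in part with the treatment and are given beside these falls. The log2 summed level of 6 Kupffer cell and macrophage markers was 11.35 to 12.24 in null livers and 11.97 to 12.38 in control livers after tunicamycin, against 12.22 to 12.57 in null livers and 12.61 to 12.95 in control livers after vehicle, and 1 of the 6, Adgre1, was called lower in each genotype. That of 4 bile duct cell markers was 7.48 to 10.2 in null livers and 7.30 to 7.52 in control livers after tunicamycin, against 7.16 to 8.03 in null livers and 7.56 to 7.76 in control livers after vehicle, with 0 called in either genotype. The 10.2 was on the array with kidney transcripts, and the other null arrays after tunicamycin read 7.88 and 7.48. That of 4 intestine markers was 9.56 to 9.77 in null livers and 9.75 to 10.39 in control livers after tunicamycin, against 11.04 to 11.68 in null livers and 11.33 to 11.88 in control livers after vehicle. In this list 1 of 4 genes, Fabp2, was called lower in each genotype, with differences of -2.11 ± 0.24 in null livers and -1.49 ± 0.24 in control livers (adjusted p = 0.000147 and 0.000784). That of 2 lymphocyte markers was 8.41 to 8.81 in null livers and 8.45 to 8.90 in control livers after tunicamycin, against 8.78 to 9.40 in null livers and 8.99 to 9.47 in control livers after vehicle, with 0 called. Of the endothelial, stellate cell and neutrophil markers 0 were called with tunicamycin in either genotype. Adgre1 and Fabp2 were named after their values were seen. The part of these markers in the differences above was not tested.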

How the data were processed

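Total RNA of mouse liver was hybridised to 12 Affymetrix arrays, and the authors deposited 1 linear intensity value for each probe set, per the labels' protocols and the files. The summary algorithm, scaling and software, not given in the sources used here, could shift every value. Of 45101 probe sets 64 controls were left out, 34945 had 1 gene symbol in the platform annotation, and the 932 with several and the 9160 with none were not used. After log2(value + 16), arrays were quantile normalised with limma 3.58.1 in R 4.3.3. The lowest 30% of probe sets were left out and the brightest of each gene was kept, which left 14568 genes.

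Group means of all 12 arrays were fitted with lmFit and eBayes, leaving 8 residual degrees of freedom, and compared in 5 contrasts, with Benjamini-Hochberg adjustment. No 2 arrays were duplicates. The genes described, the wider list, the markers and the tests were chosen with earlier results of these data known. Named were all 10 genes, up to 6 called genes of the wider list per contrast by p (otherwise the 2 smallest), and Fgfr4, Klb, Nr5a2, Hnf4a, Rxra, Foxa2, Slc51b, Abcb4 and Abcc2. Of the wider list Fdxr, Gpbar1, Sult2a1 and Ugt1a1 had no probe set of their own, and Fgf15 was among the dim ones. A gene and a motif named in the plan are not reported here. Promoter windows are RefSeq's, and those of Cyp7a1, Cyp7b1, Baat and Slc27a5 were not used here. The fit was tested on simulated data. Alternatives covered pseudocount, filter, scaling, probe set choice, eBayes options, covariates and left-out arrays. Figures were drawn with matplotlib 3.10.9.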

Additional observations from a re-analysis of the deposited data

How the results depend on the processing

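With tunicamycin in null livers the 10 genes' 1 call became 2 with the values as deposited, 0 with a 2-fold threshold, and 1 to 2 when each array was left out in turn, and the wider list's 14 calls became 9 with the 2-fold threshold. In control livers the 10 genes' 2 calls became 1 with the 2-fold threshold and 1 with actin ratio as covariate, and 2 to 3 with an array left out, and the wider list's 22 calls became 14 with the values as deposited, 12 with the 2-fold threshold and 13 with the actin ratio. Between the genotypes after tunicamycin the 10 genes' 1 call became 0 with the 2-fold threshold and 1 to 2 with an array left out, and the wider list's 2 calls became 0 with only the groups compared and 0 to 5 with an array left out. No called difference changed sign, while 54 values of the 10 genes that were not called did under an alternative, out of all settings and comparisons. The cause of these changes was not tested, except that a fold threshold keeps fewer genes by its construction.

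The replicate number as a block (replicate block) left 1, 2 and 1 of the 10 genes called in those 3 comparisons, and 12, 20 and 2 of the wider list. Same-numbered arrays were not alike throughout: 5 of 18 such pairs correlated above 0.1 in their deviations from the group means (range -0.41 to 0.49). Of 12 arrays 6 were nearest to their own number. These counts were not tested against chance, so they do not settle whether the numbers pair the arrays. Over all genes, centred array medians gave 1256 higher and 703 lower calls in null livers and 2100 higher and 1181 lower in control livers. With 3 arrays per group, small changes are not resolved. Neither is the depth of the fall of Nr0b2 in control livers, where it read near the array median after tunicamycin.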
